A study of Mus musculus with 4 samples.

Results

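Hmgcs1, Idi1, Fdps, Sqle, Lss, Cyp51, Srebf2 and Insig1, a set of 8 genes of cholesterol synthesis and its control, were followed in C3H10T1/2 cells, a mouse mesenchymal stem cell line. They were chosen by name, as all transcripts that the deposited mRNA values assign to these symbols, and a gene's level was the sum over its transcripts. They comprised 15 of the 75959 transcripts and 8 of the 21878 genes. The label of the set also names cholesterol uptake, but none of the 8 encodes a lipoprotein receptor, so uptake genes were taken from a separate list. RNA without its ribosomal part was read in 4 samples, of which replicates 1 and 2 were untreated and replicates 101 and 102 had received 5-AZA. 5-AZA (5-azacytidine), an analogue of cytidine, is built into nucleic acids and lowers DNA methylation. It was given at 20 μM for 72 hours with 21 days in fresh medium afterwards. No culture time is given for the untreated cells, so treatment and time in culture cannot be told apart. The study describes the replicates as biological repeats, and whether they were grown as separate cultures is not given in the sources used here, so the p-values measure the spread between these samples.

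Cholesterol is made from acetyl-CoA. The mevalonate steps build isoprenoid units and join them to squalene, and the sterol steps close squalene into rings and trim the product to cholesterol. The enzymes are controlled together by SREBP2, the transcription factor encoded by Srebf2, which is held in the endoplasmic reticulum by SCAP and the INSIG proteins while sterols are plentiful and is released to the nucleus when they are scarce. INSIG1 is itself a target of SREBP. SREBP1, encoded by Srebf1, acts more on fatty acid genes, and LXR, a receptor for oxysterols, drives cholesterol efflux and Srebf1.

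In RefSeq annotation of build GRCm38.p6, Hmgcs1 lies at chr13:119690351-119708260, Idi1 at chr13:8885606-8892396, Fdps at chr3:89093588-89101967, Sqle at chr15:59315092-59331193, Lss at chr10:76531565-76557139, Cyp51 at chr5:4080674-4104697, Srebf2 at chr15:82147269-82205379 and Insig1 at chr5:28071412-28078662.

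SREBPs bind sterol regulatory elements close to NF-Y and GC boxes, and RefSeq promoters of build GRCm38.p6 were available for 6 of the 8 genes (Cyp51, Hmgcs1, Idi1, Insig1, Lss and Srebf2). The 250 bases before the start of each were searched on both strands for TCACNCCAC (a sterol regulatory element), CCAAT (the NF-Y box) and GGGCGG (the GC box). All 6 held at least 1 CCAAT, which 33.8% of 32851 promoters hold, and all 6 held at least 1 GGGCGG, which 32.7% hold. TCACNCCAC was found in Hmgcs1, with its first letter 137 bases before the start, and in 1.05% of all promoters. No matches overlapped each other in these 6. A further 12 genes of the synthesis steps had promoters in the table, of which 11 held a CCAAT, 11 a GGGCGG and 0 a TCACNCCAC. The absence of a match says only that these letters are not in the window. The Hmgcs1 sequence is shown because it holds all 3 motifs, Srebf2 because it encodes the regulator, and Insig1 because its level behaved unlike that of the other 7 genes. The matches are in capitals, and each sequence runs 5′ to 3′ on the strand of the gene, at chr13:119690101-119690350 (+), chr15:82147019-82147268 (+) and chr5:28071162-28071411 (+) in GRCm38.p6, before the transcribed part.
Hmgcs1: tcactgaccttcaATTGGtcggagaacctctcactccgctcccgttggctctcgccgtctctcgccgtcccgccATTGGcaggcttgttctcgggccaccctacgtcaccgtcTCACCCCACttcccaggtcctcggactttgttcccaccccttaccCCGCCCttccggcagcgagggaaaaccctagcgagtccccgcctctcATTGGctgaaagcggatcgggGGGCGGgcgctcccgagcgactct
Srebf2: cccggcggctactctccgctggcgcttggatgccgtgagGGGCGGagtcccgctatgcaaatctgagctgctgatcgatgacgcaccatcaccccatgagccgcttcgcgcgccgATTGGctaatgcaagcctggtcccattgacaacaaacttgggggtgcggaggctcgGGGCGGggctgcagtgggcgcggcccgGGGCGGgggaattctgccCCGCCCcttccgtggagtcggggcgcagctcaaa
Insig1: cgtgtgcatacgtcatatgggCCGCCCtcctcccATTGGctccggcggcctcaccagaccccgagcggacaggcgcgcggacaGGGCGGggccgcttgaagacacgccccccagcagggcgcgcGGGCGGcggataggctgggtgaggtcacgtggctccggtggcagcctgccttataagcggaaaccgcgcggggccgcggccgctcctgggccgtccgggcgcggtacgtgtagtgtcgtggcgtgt

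Srebf2 also carries the gene for miR-33, a microRNA known to repress Abca1. The mature miR-33-5p lies within the bounds of Srebf2, at chr15:82198127-82198147 (+, GRCm38.p6). It is shown with its seed, bases 2 to 8, in capitals, because its host gene fell and Abca1 is described among the efflux genes. The level of the microRNA was not analysed here.
miR-33-5p: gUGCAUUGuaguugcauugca

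Library sizes were only estimated, from the circRNA values. If the lowest circRNA value of a sample is taken as 2 reads, the circRNA values correspond to 92903364 to 93920706 reads per sample. That assumption was not tested. The mRNA values summed to between 328410 and 361664 FPKM (fragments scaled to transcript length and library size), and FPKM keeps no counts behind a single value. By the fit described next, the skeletal muscle markers were called higher in 9 of 9 genes tested, with summed levels of 1.27 and 1.60 FPKM in the untreated and 812 and 1244 FPKM in the 5-AZA samples, led by Mylpf (353 and 517 FPKM after 5-AZA) and Acta1 (182 and 312 FPKM). The adipocyte markers were higher in 7 of 7 tested (sums of 32.8 to 47.8 against 1108 to 1524 FPKM), led by Fabp4 (887 and 1196 FPKM after 5-AZA) and Adipoq (86.8 and 123 FPKM), and Lep was listed at 0 in 3 samples. Of 3 leukocyte markers tested, 1 was called higher, Cd68, at 1.16 and 1.47 FPKM before and 2.27 and 3.69 FPKM after 5-AZA. Cd14 was at 2.40 and 2.59 and then at 3.10 and 3.24 FPKM and was not called, Adgre1 was at 0 in all 4 samples and Ptprc in 3, and the list summed to 4.52 to 5.79 FPKM in the untreated and 6.30 to 8.43 FPKM in the 5-AZA samples. Of 7 mesenchymal markers tested, 3 were called lower and 3 higher, and their list summed to 3053 to 3117 FPKM before and 1760 to 2046 FPKM after. Vim was at 2268 and 2406 FPKM and then at 1178 and 1380 FPKM, a fall of the size seen in the cholesterol enzymes (log2 fold change -0.87), and Col1a1 and Col1a2 changed by -0.52 and -0.37. Thy1 rose from 0.578 and 0.785 FPKM to 10.4 and 14.2 FPKM, Pdgfra and Eng rose by 0.74 and 0.80 on the log2 scale, and Nt5e was listed at 0 in both untreated samples. Of 8 proliferation markers, 1 (Ccna2) was called lower and 7 were not called, with sums of 210 to 261 FPKM in the untreated and 195 to 200 FPKM in the 5-AZA samples. Pcna was at 93.3, 83.3, 70.8 and 71.8 FPKM and Top2a at 61.1, 45.8, 51.9 and 48.5 FPKM in untreated replicates 1 and 2 and 5-AZA replicates 101 and 102. In such bulk samples, fewer cells of a type and less RNA per cell cannot be told apart, and the part of these cell types in the results for the cholesterol genes was not tested.

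After 5-AZA, 7 of the 8 genes were lower and Insig1 was not. The 7 genes, 6 of them enzymes and the other Srebf2, stood at 50.9% to 74.9% of their untreated means. Their levels added up to 412 and 424 FPKM in the untreated samples and to 240 and 272 FPKM in the 5-AZA samples. The 8 genes were tested within the whole table, with limma on log2(FPKM + 0.1) of the 13199 genes whose mean reached 0.1 FPKM. A gene was called where its Benjamini-Hochberg adjusted p-value was below 0.05. All 8 genes reached that mean. The call was lower for 7 of them and higher for 0, while over all genes tested 5.93% were called lower and 18.6% higher. At an unadjusted p-value below 0.05, again 7 of the 8 were lower and 0 higher. Of the 13199 genes tested, 1464 were lower at that limit. No gene of the set passed 2-fold on this scale, while 1.32% of all genes were called lower and 13.1% higher with a change of over 2-fold. With 2 samples against 2 there are 6 ways to split the samples, and an exact two-sided permutation test of a single gene cannot go below p = 0.333.

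**Figure D1:**
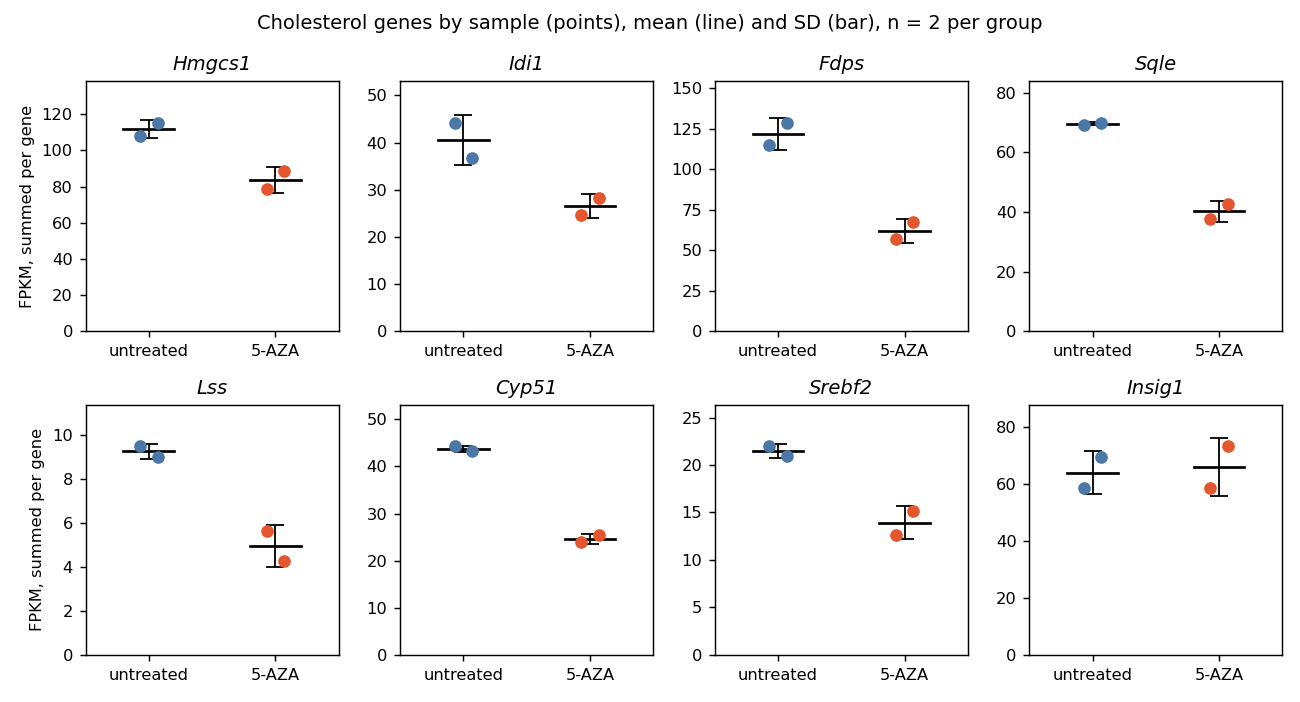
Levels of the 8 genes in FPKM, summed over the transcripts of each gene, in the untreated and the 5-AZA samples. Points are samples, lines are group means and bars are SDs (n = 2), and each axis starts at 0. The groups do not overlap in 7 panels, and in the panel of Insig1 they do.

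All 3 mevalonate enzymes of the set fell. Hmgcs1, the synthase that makes HMG-CoA, was at 108 and 115 FPKM in the untreated and at 78.7 and 88.6 FPKM in the 5-AZA samples. It had the smallest fall of the 7 genes, -0.42 on the log2 scale (standard error, SE, 0.10, 95% interval -0.65 to -0.19, limma adjusted p = 0.0172). Idi1, the isomerase that interconverts the pair of isoprenoid building blocks, was at 44.2 and 36.7 FPKM before and at 24.7 and 28.3 FPKM after treatment (log2 fold change -0.61, SE 0.13, limma adjusted p = 0.00818). Its untreated replicates differed more than those of any other of the 7 genes relative to their mean, but both lay above both 5-AZA samples. Fdps joins these units to farnesyl diphosphate, the last precursor shared by sterols and other isoprenoids. It was the highest of the 8 genes in the untreated cells, at 115 and 129 FPKM, and was at 56.8 and 67.2 FPKM after 5-AZA. This was the largest fall of the set, from 122 ± 9.82 to 62.0 ± 7.36 FPKM (SD, n = 2), and amounted to -0.98 on the log2 scale (SE 0.11, 95% interval -1.24 to -0.71, limma adjusted p = 0.000354).

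The 3 sterol enzymes fell by similar amounts, and their 95% intervals overlap. Sqle, squalene epoxidase, a rate-limiting enzyme of the sterol steps, was at 69.1 and 69.9 FPKM in the untreated samples and at 37.8 and 42.6 FPKM in the 5-AZA samples. On the log2 scale this was -0.79 (SE 0.10, limma adjusted p = 0.000589). Lss, lanosterol synthase, closes the rings and was the lowest gene of the set. It was at 9.46 and 9.0 FPKM before and at 5.61 and 4.27 FPKM after 5-AZA, or -0.90 on the log2 scale (SE 0.17, limma adjusted p = 0.00462). Cyp51, the demethylase that acts on lanosterol, was at 44.2 and 43.3 FPKM and then at 23.9 and 25.3 FPKM, or -0.83 on the log2 scale (SE 0.10, limma adjusted p = 0.000386). The 2 samples of each group lay close together for Cyp51, and the gap between the groups was many times the spread within them.

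The regulators divided. Srebf2 fell from 22.0 and 20.9 FPKM to 12.7 and 15.2 FPKM, or -0.62 on the log2 scale (SE 0.13, limma adjusted p = 0.00700). Insig1 was at 58.5 and 69.3 FPKM in the untreated and at 58.7 and 73.2 FPKM in the 5-AZA samples. Its groups overlapped, and the log2 fold change was 0.04 (95% interval -0.26 to 0.35, limma adjusted p = 0.868), which turned to -0.067 when each sample was centred on its median and to -0.027 after quantile normalization. The interval of Insig1 does not reach those of Fdps, Sqle, Lss, Cyp51, Srebf2 and Idi1, whose upper ends lie at -0.71, -0.56, -0.52, -0.60, -0.34 and -0.32, and it overlaps that of Hmgcs1. Within each sample, Insig1 exceeded the median of the other 7 genes by 0.40 and 0.68 on the log2 scale in the untreated and by 1.24 and 1.37 in the 5-AZA samples. The difference of 0.77 between the groups had an exact two-sided permutation p of 0.333, the smallest the design allows. The ratio of Insig1 to Srebf2 in FPKM was 2.67 and 3.31 in the untreated and 4.63 and 4.81 in the 5-AZA samples. Of the 8 genes, 7 were lower in both 5-AZA samples than in both untreated samples, which held for 25.4% of all genes tested, and 0 were higher in both, which held for 36.8%.

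**Figure D2:**
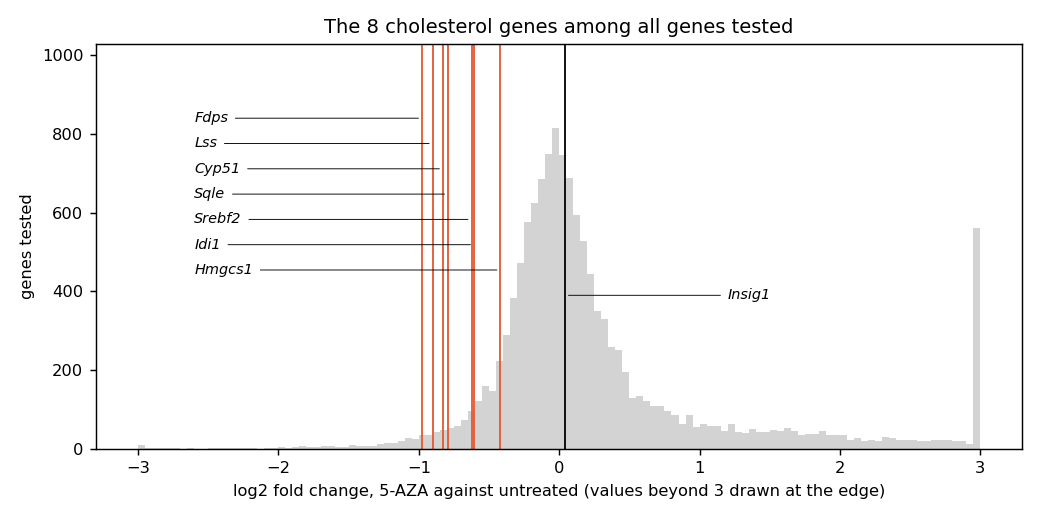
Distribution of log2 fold changes (5-AZA against untreated, limma) over the 13199 genes tested, with the 8 genes marked by vertical lines and values beyond 3 in either direction drawn at the edge. Insig1, at 0.04, stands beside the median of all genes, 0.05, and the other 7 lie between -0.98 and -0.42.

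The median log2 fold change of the 8 genes was -0.71, and that of all genes tested was 0.05. Of all genes tested, 1.78% had a lower value than Fdps and 9.35% a lower value than Hmgcs1, and 49.3% lay below Insig1. The median over all genes moved to -0.06 when samples were centred on their medians and to -0.12 after quantile normalization. The share of lower genes among those called was 24.2% on the values as deposited, 44.4% after centring and 58.5% after quantile normalization, while the same 7 genes were called lower in each of these fits. Fewer of the 8 were called when a sample was left out, as over all genes tested, and such a fit leaves 1 sample in a group. The median of the 8 was then -0.69 and -0.76 without untreated replicates 1 and 2. It was -0.61 and -0.73 without 5-AZA replicates 101 and 102. Each of the 7 stayed below 0 in all of these fits.

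Levels can be compared between genes because FPKM is scaled to length. In the untreated samples the order was Fdps, Hmgcs1, Sqle, Insig1, Cyp51, Idi1, Srebf2 and Lss. Within both untreated samples each gene stood below the gene before it in this order. Across the samples, the ranges of Fdps and Hmgcs1, of Sqle and Insig1, and of Cyp51 and Idi1 overlapped. The untreated mean of Lss, 9.23 FPKM, lay at percentile 60.3 of the genes tested, and that of Fdps at percentile 96.7. After 5-AZA, Hmgcs1 was first at 83.7 ± 7.03 FPKM, followed by Insig1 (65.9 ± 10.2), Fdps (62.0 ± 7.36) and Sqle at 40.2 ± 3.44 FPKM (SD, n = 2). The ranges of Insig1 and Fdps overlapped, but Insig1 stood above Fdps within both 5-AZA samples. The ranges of Idi1 and Cyp51 again overlapped, with Idi1 above Cyp51 within both 5-AZA samples. Srebf2 (13.9 ± 1.78) and Lss (4.94 ± 0.948) were last. Between the 5-AZA samples, replicate 102 was the higher for 7 of the 8 genes, Lss being the exception, and its FPKM sum was 1.10 times that of replicate 101.

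Of the 15 transcripts, Cyp51, Sqle, Idi1 and Insig1 have 1 each, Fdps and Srebf2 have 2, Hmgcs1 has 3 and Lss has 4. When transcripts were tested singly, 3 of the 15 were called lower and 0 higher, namely NM_134469.4 of Fdps and the single transcripts of Sqle and Cyp51. Of the 35557 transcripts tested, 0.366% were called lower and 2.25% higher. At an unadjusted p-value below 0.05, 8 of the 15 and 5.37% of all transcripts were lower. NM_134469.4 carried 89.9% to 93.7% of the sum of Fdps, and its log2 fold change was -1.01 (limma adjusted p = 0.0231).

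Hmgcs1 was uneven among its transcripts. NM_001291439.1 (variant 2) was at 83.1 and 82.7 FPKM in the untreated and at 53.9 and 64.1 FPKM in the 5-AZA samples, a difference of -0.50 on the log2 scale (limma adjusted p = 0.115). NM_145942.5 (variant 1) was at 20.5 and 20.2 FPKM and then at 21.5 and 19.0 FPKM, with overlapping groups. Its share of the gene sum was 19.0% and 17.5% in the untreated and 27.3% and 21.4% in the 5-AZA samples. The difference between the variants was not tested, and reads from exons common to several transcripts can be assigned to them unevenly. In Lss, NM_146006.2 was at 7.64 and 6.94 FPKM and then at 2.99 and 4.11 FPKM, while the predicted transcript XM_006513283.3 ranged from 7.73e-06 FPKM in 5-AZA replicate 102 to 2.27 FPKM in replicate 101. The sum over Lss was steadier than its parts. Both transcripts of Srebf2 were lower in both 5-AZA samples than in both untreated samples, with log2 fold changes of -0.65 for NM_033218.1 (limma adjusted p = 0.153) and -0.52 for XM_006520685.1 (limma adjusted p = 0.346).

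**Figure D3:**
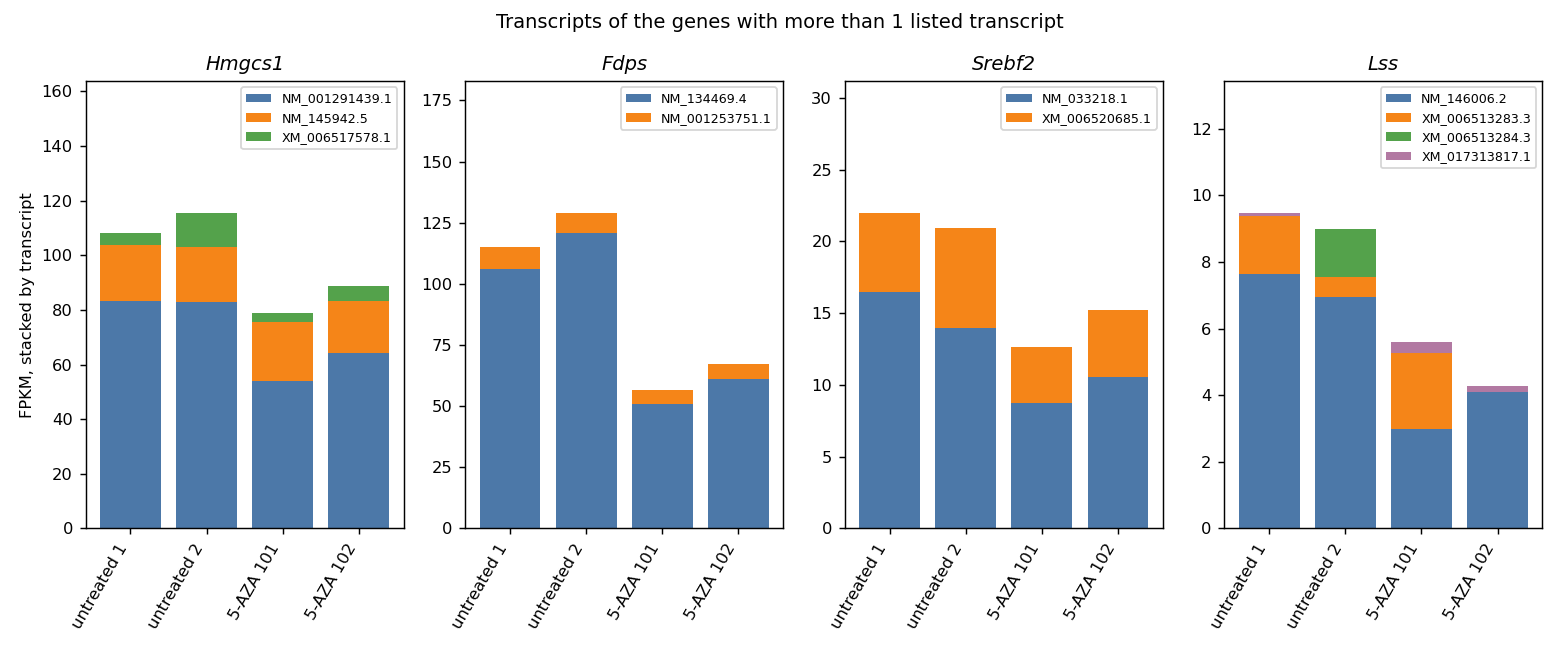
FPKM of each transcript of Hmgcs1, Fdps, Srebf2 and Lss, stacked for each of the 4 samples, with axes that start at 0. The sums are lower in both 5-AZA samples for all 4 genes, NM_145942.5 of Hmgcs1 keeps a like height in the 4 samples, and the split of Lss among its transcripts differs from sample to sample.

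No circRNA among the 4295 listed had one of the 8 genes as its host. Of the lncRNAs, 20 lay within 2000 bases of one of the 8 genes, and 6 of these were high enough to test. Limma called 0 of the 6. Over the 24075 lncRNAs tested, 0.154% were called lower and 0.984% higher, and the median log2 fold change was -0.23. At an unadjusted p-value below 0.05, 2 of the 6 were lower and 0 higher. The matching share of all lncRNAs was not counted, so the 2 are not read as particular to these neighbours. NONMMUT120109.1 lies at chr5:28019464-28071233 on the strand opposite to Insig1. It starts within the promoter sequence shown for Insig1 and runs away from that gene. Its level was 0.577 and 0.349 FPKM in the untreated samples and was listed at 0 in both 5-AZA samples. NONMMUT024358.2 lies on the strand of Srebf2 and within its bounds, at chr15:82158041-82161977, and was at 1.23 and 1.05 FPKM and then at 0.680 and 0.385 FPKM. Its reads and those of Srebf2 cannot be told apart here. Both were named after their values were seen.

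Most other genes of the synthesis steps fell with the members of the set. Of the 21 genes listed for the synthesis steps, 6 of which belong to the set, 17 were called lower and 0 higher. All 21 had a log2 fold change below 0, with a median of -0.77. Over all 13199 genes tested, 5.93% were called lower and 5914 genes had a log2 fold change below 0. Of the 15 that do not belong to the set, 11 were called lower. With a 5-AZA sample left out, fewer of the 21 were called, as over all genes tested, and such a fit leaves 1 sample in the group. Without 5-AZA replicates 101 and 102, 18 and 21 of the 21 synthesis genes were below 0. In the mevalonate steps, Acat2, which joins acetyl-CoA units, was at 51.7 and 53.0 FPKM before and fell by 0.85 on the log2 scale (limma adjusted p = 0.000383), the kinases Mvk and Pmvk fell by 0.91 and 0.43, and Fdft1, squalene synthase, fell by 0.80. Mvd was at 6.72 and 6.21 FPKM and then at 4.28 and 6.58 FPKM and was not called (limma adjusted p = 0.389). Under 14 alternative settings of the fit, Acat2 was called in 14, Fdft1 in 12, Mvk in 11 and Pmvk in 6.

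In the sterol steps, Msmo1, a methylsterol oxidase, had the largest fall, from 129 and 145 FPKM to 68.2 and 68.3 FPKM (log2 fold change -1.0, limma adjusted p = 0.000128). Tm7sf2 fell by 0.85, Nsdhl by 0.77, Sc5d by 0.73 and Ebp by 0.40 on the log2 scale. Of the 14 alternatives, Msmo1, Nsdhl and Sc5d were called in 12, Tm7sf2 in 9 and Ebp in 7. Lbr, Hsd17b7 and Dhcr7 were not called, with log2 fold changes of -0.31, -0.09 and -0.05. The interval of Dhcr7, -0.50 to 0.39, leaves room for a change in either direction. By the KEGG terms listed beside the values, 10 of the 16 tested genes of Steroid biosynthesis were called lower, with a median of -0.75, and 7 of the 21 tested genes of Terpenoid backbone biosynthesis, with a median of -0.08, and 0 of either were called higher.

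**Figure D4:**
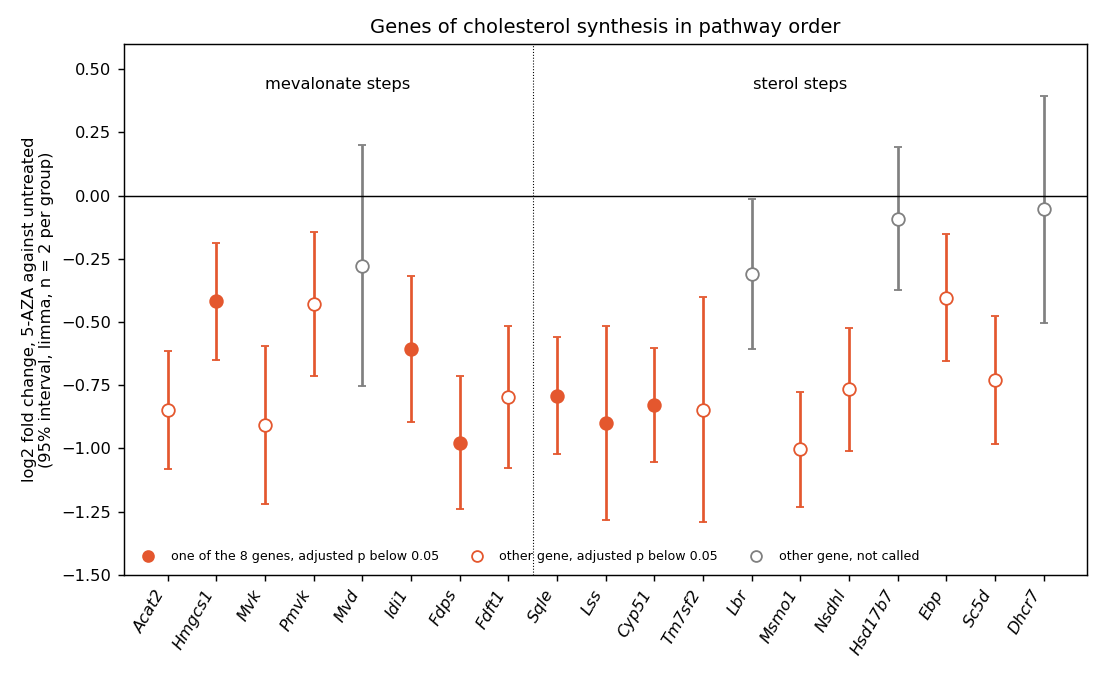
Log2 fold changes (5-AZA against untreated) of 19 of the 21 genes of the synthesis steps, roughly in pathway order, with 95% intervals from limma (n = 2 per group). Filled points belong to the set of 8. The points all lie below 0, and 4 of them, Mvd, Lbr, Hsd17b7 and Dhcr7, were not called.

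The genes that handle SREBP did not move together. Of 7 listed, 1 (Srebf2) was called lower and 2 higher. Srebf1 rose from 6.41 and 5.88 FPKM to 11.7 and 16.1 FPKM (log2 fold change 1.15, limma adjusted p = 0.00129). The ratio of Srebf1 to Srebf2 was 0.292 and 0.281 in the untreated and 0.926 and 1.06 in the 5-AZA samples. Most of the rise was in the predicted transcript XM_006532715.2, at 0.106 and 0.324 FPKM before and 5.29 and 5.63 FPKM after, while NM_011480.4 was at 5.27, 4.08, 4.39 and 6.15 FPKM in untreated replicates 1 and 2 and 5-AZA replicates 101 and 102. When the transcript with the highest mean stood for the gene, Srebf1 was not called (log2 fold change 0.16). It was called in 10 of 14 alternatives, over which its log2 fold change lay between 0.06 and 1.37. Insig2, the second INSIG gene, was at 19.0 and 17.2 FPKM and then at 23.3 and 25.7 FPKM (log2 fold change 0.44, limma adjusted p = 0.0245), but its leading transcript alone gave -0.25 and its NM_ transcripts together 1.13, and it was called in 7 of 14 alternatives. Scap, the escort protein, was at 8.31 and 8.15 FPKM and then at 7.17 and 9.60 FPKM, with a log2 fold change of 0.01 (95% interval -0.36 to 0.39), which was -0.095 after centring, -0.084 after quantile normalization and -0.011 after scaling to equal FPKM sums. Of the 7 genes listed for the degradation of sterol-regulated proteins, limma called 0, also at an unadjusted p-value below 0.05, and their log2 values lay between 0.08 and 0.18.

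Of the 12 genes listed for cholesterol uptake and lysosomal export, 11 were tested, 2 were called lower and 4 higher. Stard4, which carries sterols between membranes, was at 8.59 and 10.6 FPKM before and at 4.70 and 5.65 FPKM after 5-AZA (log2 fold change -0.87, limma adjusted p = 0.00524). Vldlr rose by 0.64 on the log2 scale, Mylip, whose product marks lipoprotein receptors for degradation, by 0.52, and Scarb1, the receptor for high-density lipoprotein, by 0.99. These calls were not stable, since of 14 alternatives Stard4 was called in 9, Vldlr in 8 (0.40 over NM_ transcripts, limma adjusted p = 0.303), Mylip in 6 and Scarb1 in 5 (0.50 with its highest transcript, limma adjusted p = 0.487).

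The genes of efflux, storage and oxysterols moved the other way. Of 10 genes, 9 were tested, 7 were called higher and 0 lower. The median log2 fold change of 2.74 is the value of Abcg1, which lay at 0.0217 and 0.0157 FPKM in the untreated samples and moved to 0.74 with 1 FPKM added, to 4.62 with 0.01 FPKM added and to 1.43 after quantile normalization. The values of Ch25h (1.71 to 4.30 over the alternatives) and Nr1h3 (1.29 to 4.08, called in 9 of 13) moved likewise. Over all pathway lists, 19 genes were called higher in the fit of all 4 samples. Fewer were called higher with either 5-AZA sample left out, as over all genes tested. Abca1, the cholesterol exporter, was at 10.7 and 11.5 FPKM before and at 28.1 and 36.3 FPKM after 5-AZA (log2 fold change 1.52, limma adjusted p = 8.58e-05). Apoe, an apolipoprotein made by macrophages and adipocytes among others, was at 5.91 and 3.52 FPKM and then at 177 and 285 FPKM. Nr1h3, which encodes LXR alpha, was at 0.0408 and 0.196 FPKM and then at 1.48 and 1.99 FPKM. Nceh1, Abcg1 and Ch25h rose by 0.90, 2.74 and 3.60 on the log2 scale. Cyp27a1 was listed at 0 in both untreated samples and at 0.571 and 0.644 FPKM after 5-AZA. Adipocyte markers rose in the same samples, as given above, and their part in these rises was not tested.

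Of the genes of the non-sterol isoprenoid branch, which use the products of Fdps for other ends, 0 of 8 were called by limma at an adjusted p-value below 0.05, and their median was 0.09. At an unadjusted p-value below 0.05 there was 1, Coq2, with 0.44. The genes of fatty acid and triglyceride synthesis had 6 of 10 called higher and 1 lower, with a median of 0.62. Scd1, a desaturase, rose by 2.64, Acss2 by 1.31, Dgat2 by 1.06, Dgat1 by 0.95, Fasn, fatty acid synthase, by 0.80 and Gpam by 0.45. Scd2 fell by 0.54 on the log2 scale. Of 14 alternatives, Gpam was called in 5 (0.11 at the lowest), Dgat1 in 9 and Scd2 in 10. Fasn and Dgat2 were called in 11, Acss2 in 12 and Scd1 in 13. The mevalonate and sterol lists thus held called genes in 1 direction, downward, and the fatty acid list in both. The difference between the lists was not tested.

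**Figure D5:**
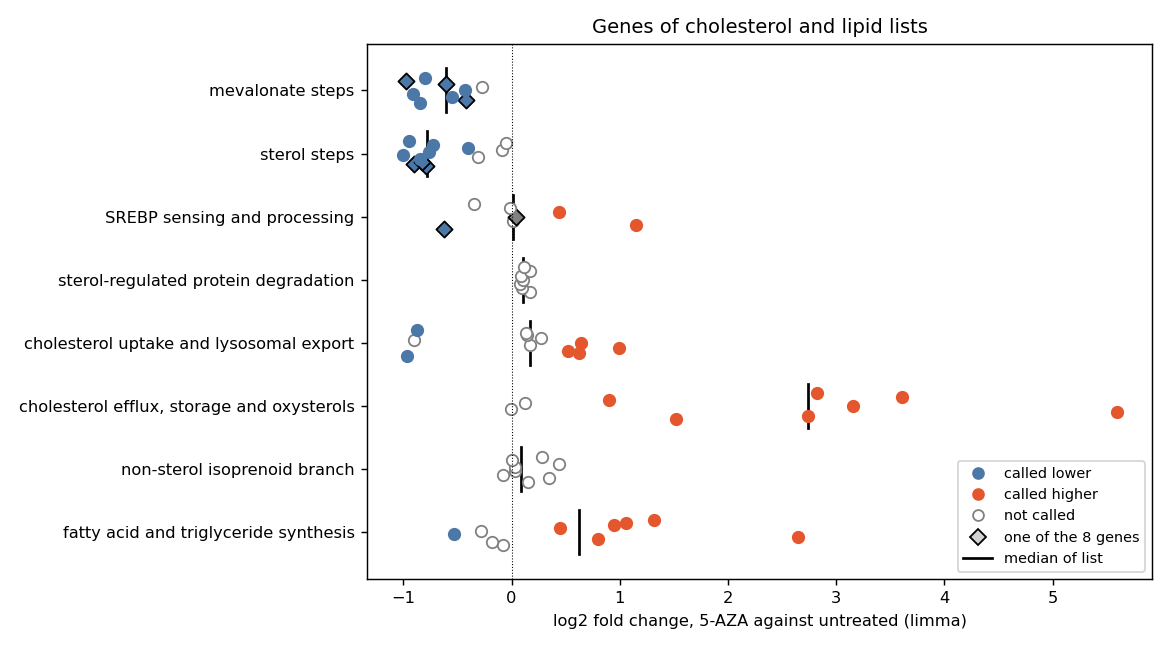
Log2 fold changes (5-AZA against untreated, limma) of the genes tested in 8 lists of cholesterol and lipid genes. Diamonds are the 8 genes of the set and are all filled, with Insig1, which was not called, in grey. Filled circles were called and open circles were not. Vertical bars are list medians, which run from -0.78 for the sterol steps to 2.74 for efflux, storage and oxysterols.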

How the data were processed

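Ribosomal RNA was removed, stranded libraries were sequenced, and the authors deposited FPKM per transcript for mRNAs and lncRNAs and RPM per circRNA. The submitters' processing notes name Trimmomatic, HISAT2, Bowtie2 2.2.9, eXpress 1.5.1 and the build mm9 with no role or order. The deposited coordinates of 91.1% of 2131 circRNA host genes lay within the GRCm38.p6 bounds of the gene (tolerance 10 bases), so neighbours were sought in that build.

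The transcripts of a gene were summed, genes with a mean of at least 0.1 FPKM were kept, and log2(FPKM + 0.1) of the deposited values was fitted with limma 3.58.1 (eBayes with trend) in R 4.3.3, with Benjamini-Hochberg adjustment over all genes tested. The added 0.1 makes the fold changes of low genes appear smaller than they are. Lists were described by counts and medians. The fit was also run on simulated data, but with changes larger than those of the 8 genes. That run cannot say how well changes of their size are found. The members and lists were chosen with earlier results of these data known. Named were the 8 genes, a few preset regulators (Srebf1, Scap and Insig2 among them), the called genes of the lists, the 2 highest genes of each marker list and the 3 genes nearest in profile. Some genes that this rule names are not reported here. Other genes were named after their values were seen. With 2 samples per group the precision is low, and the depth behind single FPKM values is unknown. Other pseudocounts, limits, scalings, sums and left-out samples were tried.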

Additional observations from a re-analysis of the deposited data

How the results depend on the processing

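No paired analysis was run, because the labels do not say whether untreated and 5-AZA samples were matched. Of the 8 genes, 7 were called lower; 3 were without a limit on low values and 4 with eBayes without trend, and leaving out each sample gave 2 to 6. For the whole pathway lists, 21 genes were called lower and 19 higher; without a limit there were 9 and 7, with NM_ transcripts 12 higher, with the highest transcript 10 higher, and with each sample left out 4 to 18 lower and 3 to 15 higher. Over all genes, 783 were called lower and 2449 higher. These counts were 276 and 1523 without a limit, 1589 higher with a mean of at least 1 FPKM, 1850 lower after centring and 2508 after quantile normalization, 456 lower without trend, 397 and 1535 with NM_ transcripts, and 333 and 1459 with the highest transcript. With each sample left out they were 79 to 478 lower and 819 to 2032 higher. Of the transcripts of the 8 genes, 3 were called lower, and 0 without a limit, 5 after centring, 5 after quantile normalization, 0 without trend and 0 to 0 with each sample left out.

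Of 112 results for single genes of the set under 14 alternatives, 87 kept their direction and side of the threshold, 21 kept the direction only, and 4 turned, all for Insig1: -0.067 after centring, -0.027 after quantile normalization, and a range of -0.12 to 0.20 with each sample left out, below 0 without untreated replicate 1 (-0.081) and without 5-AZA replicate 102. Sqle and Cyp51 were called under all 14. Of 473 results for the other named genes, 352 kept direction and side, 115 kept the direction only and 6 turned. Scap turned to -0.095 after centring, -0.084 after quantile normalization and -0.011 after scaling to equal sums, ranged from -0.20 to 0.22 with each sample left out (-0.0018 without untreated replicate 2), and Insig2 to -0.25 with the highest transcript. The causes were not tested. Fits without a sample leave 1 sample in a group, which is assumed to vary like the others.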

Other observations

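Among the 10792 other genes with a mean of at least 1 FPKM, the 3 whose log2 values over the 4 samples lay closest to the median profile of the 8 genes were Nebl, Papss1 and Tox, at root mean square distances of 0.023, 0.026 and 0.027. Papss1, a sulfate-activating enzyme, was at 47.4 and 43.9 FPKM in the untreated and at 26.2 and 28.9 FPKM in the 5-AZA samples. Nebl was at 1.70 and 1.65 FPKM and then at 0.905 and 1.02 FPKM, and Tox at 9.07 and 8.68 FPKM and then at 4.91 and 5.56 FPKM. Of the 8 genes themselves, Sqle was the nearest to that profile (0.052) and Insig1 the farthest (0.39). The 4 samples are too few for a correlation.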
